A study of Mus musculus with 4 samples.

Results

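Glycolysis enzymes and genes induced by low oxygen were followed across 4 arrays of cultured mouse macrophages loaded with fatty acids. The set was a list of 37 gene symbols: 17 enzymes from hexokinase to lactate dehydrogenase, 7 genes of sugar and lactate transport and of flux control, 2 alpha subunits of the hypoxia-inducible factor HIF, and 11 other HIF targets. Of the 37, 33 had a probe set with a single gene symbol, among 22180 such genes in all, and all 33 passed the filter on dim genes, which kept 13308 genes. Aldoa and Ankrd37 had only probe sets shared with another symbol, and Gpi1 and Eno1 had no probe set listed under their symbols; these 4 were not analysed here. Ero1l is listed under its present symbol, Ero1a.

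The cells were bone marrow-derived macrophages (BMDM) grown from the marrow of mice aged 8 to 12 weeks in medium conditioned by L929 cells. Wild type (WT) means Hilpdaflox/flox, both alleles floxed and intact, and knockout (KO) means HilpdaΔMΦ littermates, in which the gene is deleted in macrophages; the labels do not name the promoter behind the deletion. Both genotypes received 600 µM palmitate and oleate in a 1 to 2 ratio on albumin, for 12 h or 24 h, and no group without fatty acids was analysed here. Each of the 4 groups is 1 array, and each array is a pool of RNA from 3 samples. There was therefore no spread between replicates, and a difference between 2 arrays was described and not tested. In such bulk RNA, fewer cells of a type and less RNA per cell cannot be told apart.

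HIF is a pair of an alpha and a beta subunit that switches on genes when oxygen is short. With oxygen present, prolyl hydroxylases mark the alpha subunit for destruction, so that its activity is set mainly at the protein and much less at the transcript. Its targets include nearly every step of glycolysis, the splitting of glucose to pyruvate and lactate, and in macrophages this programme is known to accompany inflammatory activation. Hilpda, the gene deleted here, is itself a known HIF target.

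Glycolysis enzymes and the other HIF targets did not move as 1 block. From 12 h to 24 h, 12 of the 14 measured enzymes were lower in both genotypes, against 29.8% of all genes kept. Their median log2 differences were -0.22 in wild type and -0.20 in knockout. The 10 other HIF targets were split, with medians of -0.09 and 0.08. Of these 10, 4 were lower in both and 4 higher in both, near the shares of 29.8% and 29.3% over all genes. Adm, which encodes the vessel-dilating peptide adrenomedullin, went far the other way, at 1.71 on the log2 scale in wild type and by at least 2.28-fold in knockout, where its 12 h value was under background. Between the genotypes, the medians of both groups lay within 0.1 of 0 at both times, and the members past 1.5-fold were 1 at 12 h and 3 at 24 h, against 2.9% and 6.49% of all genes kept.

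The core of the DNA element that HIF binds reads ACGTG or GCGTG, and the 250 bases before the start sites are shown for Adm, Hk2 and Pgk1. Adm was the 1 member higher at 24 h by more than 1.5-fold in both genotypes. Hk2 and Pgk1 are 2 of the enzymes that were lower at 24 h in both genotypes; they were chosen after their values were seen and do not represent the rest. Sequences are from RefSeq on mouse GRCm38.p6, read 5′ to 3′ on the gene's strand and ending at the base before the start. Capitals mark ACGTG or GCGTG on either strand. The intervals are chr7:110627407-110627656 on the plus strand for Adm, chr6:82774455-82774704 on the minus strand for Hk2, and chrX:106186850-106187099 on the plus strand for Pgk1.
Adm: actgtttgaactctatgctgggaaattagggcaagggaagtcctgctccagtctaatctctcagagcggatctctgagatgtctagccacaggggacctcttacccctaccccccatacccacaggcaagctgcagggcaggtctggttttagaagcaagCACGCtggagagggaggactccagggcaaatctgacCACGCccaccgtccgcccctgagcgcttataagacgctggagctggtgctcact
Hk2: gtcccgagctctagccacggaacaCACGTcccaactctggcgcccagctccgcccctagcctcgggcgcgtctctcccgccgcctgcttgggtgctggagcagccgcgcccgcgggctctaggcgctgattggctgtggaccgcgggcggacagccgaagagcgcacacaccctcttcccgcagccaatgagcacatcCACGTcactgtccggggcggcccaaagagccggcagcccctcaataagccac
Pgk1: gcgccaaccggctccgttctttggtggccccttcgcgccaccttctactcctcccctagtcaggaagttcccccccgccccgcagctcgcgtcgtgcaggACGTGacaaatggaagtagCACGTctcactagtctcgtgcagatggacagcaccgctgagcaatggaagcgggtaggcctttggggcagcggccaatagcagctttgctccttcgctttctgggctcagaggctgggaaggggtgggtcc

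The Adm window held 2 matches to GCGTG and 0 to ACGTG, whereas the windows of Hk2 and Pgk1 each held 2 matches to ACGTG and 0 to GCGTG. Other enzymes lower at 24 h differed from both: the windows of Gapdh and Pfkp held GCGTG and 0 ACGTG, like that of Adm, and that of Tpi1 held neither. Over all 32851 windows of this length outside chromosome 18, 16.6% held ACGTG and 28.2% held GCGTG. RefSeq start sites were found for 30 of the 33 members, 41 windows in all, of which 53.7% held ACGTG and 51.2% held GCGTG. By role, ACGTG stood in 8 of 21 windows of the enzymes, 5 of 8 of the transport and control genes and 8 of 11 of the other HIF targets, and GCGTG stood in 10, 5 and 6 of them. The windows of the members were also richer in G and C, with a median of 60.4% against 52.4% over all windows. A match is a description of the letters and not of binding.

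The levels of the 33 members stood above background in nearly every array. Background was taken as 2.62 on the log2 scale, the 95th percentile of 1405 olfactory, vomeronasal and trace amine receptor genes, families mostly silent outside sensory tissue. Adm in the knockout 12 h array, at 2.15, was the only one of the members' values below it. Deposited RMA values are on a log2 scale, so that 1 unit is a doubling, and levels of different genes are not set against each other, since probes differ in brightness. All 11 measured macrophage markers were above background in every array, and the log2 of their summed signal was 14.58 (wild type) and 14.54 (knockout) at 12 h, then 14.77 and 14.58 at 24 h. Over time their median difference was 0.26 in wild type and 0.02 in knockout, and between the genotypes 0.01 at 12 h and -0.26 at 24 h. Their part in the members' values was not tested. The arrays correlated pairwise at 0.984 to 0.988 over all probe sets.

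**Figure D1:**
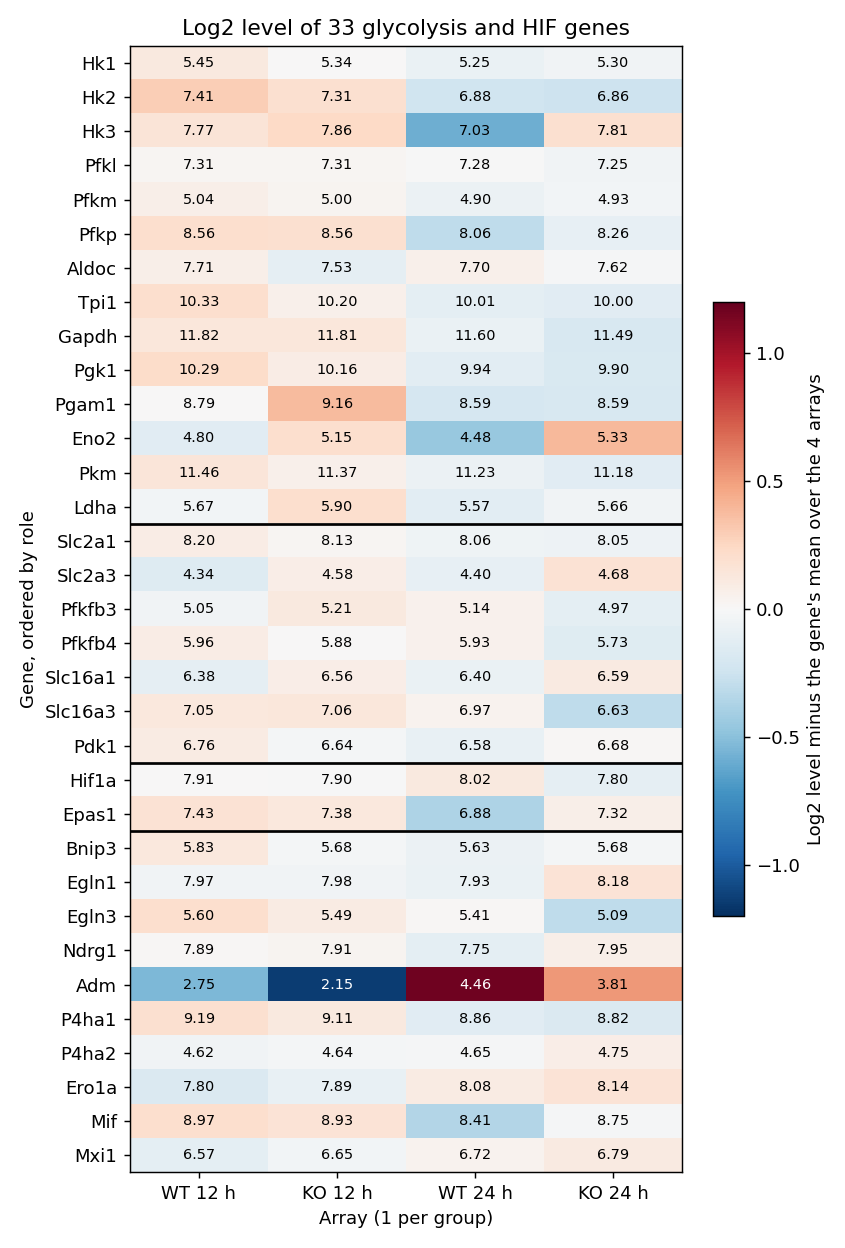
Log2 level of the 33 measured members in each of the 4 arrays, 1 per group, printed in each cell. Colour is the level minus the gene's own mean over the 4 arrays, and black lines part the enzymes, the transport and control genes, the HIF alpha subunits and the other HIF targets. The row of Adm runs from 2.15 to 4.46, and the 24 h columns of most enzymes are paler or bluer than the 12 h columns.

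The alpha subunits came first, as the regulators of the rest. Hif1a, the widely expressed alpha subunit, had 12 h log2 levels of 7.91 (wild type) and 7.90 (knockout), and 24 h levels of 8.02 and 7.80. The 4 values lay within 0.22 of each other. Epas1, which encodes the related HIF-2 alpha, was at 7.43 and 7.38 at 12 h. At 24 h it was at 6.88 in wild type against 7.32 in knockout. For Epas1 the wild-type 24 h array was low and the other 3 were close together. Its difference was -0.55 from 12 h to 24 h in wild type and -0.06 in knockout, and knockout was 0.44 above wild type at 24 h, all under 1.5-fold. A second, dim probe set of Hif1a lay between 3.32 and 3.62.

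Egln1 and Egln3 encode prolyl hydroxylases, which mark the alpha subunit and are themselves HIF targets. Egln1 was at 7.97 and 7.98 in wild type and knockout at 12 h, and at 7.93 and 8.18 at 24 h. Egln3 was at 5.60 and 5.49 at 12 h and at 5.41 and 5.09 at 24 h. In the knockout 24 h array Egln1 was thus at its highest and Egln3 at its lowest. Their genotype differences there were 0.24 and -0.32.

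From 12 h to 24 h the enzymes of glycolysis leaned lower in both genotypes. All 14 were below 0 in wild type and 12 in knockout, where Aldoc and Eno2 were above 0. Of all genes kept, 50.8% were below 0 in wild type and 49.5% in knockout. With each array centred on its median, or with quantile normalization, 13 of the 14 enzymes were below 0 in wild type. Below 0 in both genotypes were 12 of the 14 enzymes, against 29.8% of all genes kept. The median over all genes was -0.01 in wild type and 0.00 in knockout. Genes with a mean level of 8 or more, among which 6 enzymes fall, were below 0 in 49.9% and 51.4% of cases. The differences were small. Past 1.5-fold from 12 h to 24 h in wild type were 2 of the 33 members, against 8.72% of all genes kept: Adm was higher, as were 4.71%, and Hk3 lower, as were 4.01%. In knockout 1 member, Adm, was past it, against 6.31%, of which 3.06% were higher and 3.25% lower. Lower by that size in both genotypes were 0 members, against 1.12% of all genes kept. By 1.1-fold or more in both genotypes, a limit set after the values were seen, 7 of the 14 enzymes were lower, against 12.8% of all genes kept.

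Hexokinase, the entry step that traps glucose in the cell, was represented by 3 genes. Hk2, the inducible form, was at 7.41 (wild type) and 7.31 (knockout) at 12 h, then at 6.88 and 6.86 at 24 h. Both 24 h arrays were below both 12 h arrays, with differences of -0.53 in wild type and -0.44 in knockout, or 1.45-fold and 1.36-fold. Hk1, the constitutive form, lay between 5.25 and 5.45 in the 4 arrays. Hk3, the form typical of myeloid cells, was at 7.77 and 7.86 at 12 h, at 7.03 in wild type at 24 h and at 7.81 in knockout at 24 h. As for Epas1, the wild-type 24 h array of Hk3 stood low and the other 3 lay within 0.09 of each other.

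Phosphofructokinase, the committed step, was likewise measured through 3 genes. The platelet form Pfkp was at 8.56 in both genotypes at 12 h, and at 24 h at 8.06 in wild type against 8.26 in knockout, differences of -0.50 and -0.29. The liver form Pfkl lay between 7.25 and 7.31, the narrowest range of the members, and the muscle form Pfkm between 4.90 and 5.04. Of the 3 forms Pfkp had the largest time difference in both genotypes.

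Among the enzymes that follow, the bright ones moved by similar small amounts. Tpi1, triose phosphate isomerase, was at 10.33 and 10.20 at 12 h and at 10.01 and 10.00 at 24 h in wild type and knockout. Pgk1, phosphoglycerate kinase, was at 10.29 and 10.16 at 12 h and at 9.94 and 9.90 at 24 h. Pkm, pyruvate kinase, was at 11.46 and 11.37 and then at 11.23 and 11.18. In each of these genes both 24 h arrays lay below both 12 h arrays, by 1.14-fold to 1.28-fold within a genotype.

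Gapdh, often used as a reference gene, followed the same order: 11.82 and 11.81 at 12 h, 11.60 and 11.49 at 24 h. Its differences were -0.21 in wild type and -0.32 in knockout. A second bright probe set of Gapdh gave -0.16 and -0.34, and a further, dim probe set 0.05 and -0.40. For Pgam1, phosphoglycerate mutase, the knockout 12 h array was high at 9.16, against 8.79 in wild type at 12 h and 8.59 in both genotypes at 24 h. A dimmer probe set of Pgam1 also had the knockout 12 h array highest, at 5.22 against 4.71 in wild type. Its 24 h levels were 4.84 in wild type and 4.51 in knockout, so that wild type was higher at 24 h there.

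The last enzymes of the list were mixed. Ldha, which turns pyruvate to lactate, was at 5.67 and 5.90 at 12 h and at 5.57 and 5.66 at 24 h, with differences of -0.10 and -0.24. Aldoc, an aldolase, lay between 7.53 and 7.71. Eno2, the neuronal form of enolase, was at 4.80 and 5.15 at 12 h and at 4.48 and 5.33 at 24 h. In Eno2 both knockout arrays were above both wild-type arrays, and the time difference was -0.32 in wild type and 0.18 in knockout.

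**Figure D2:**
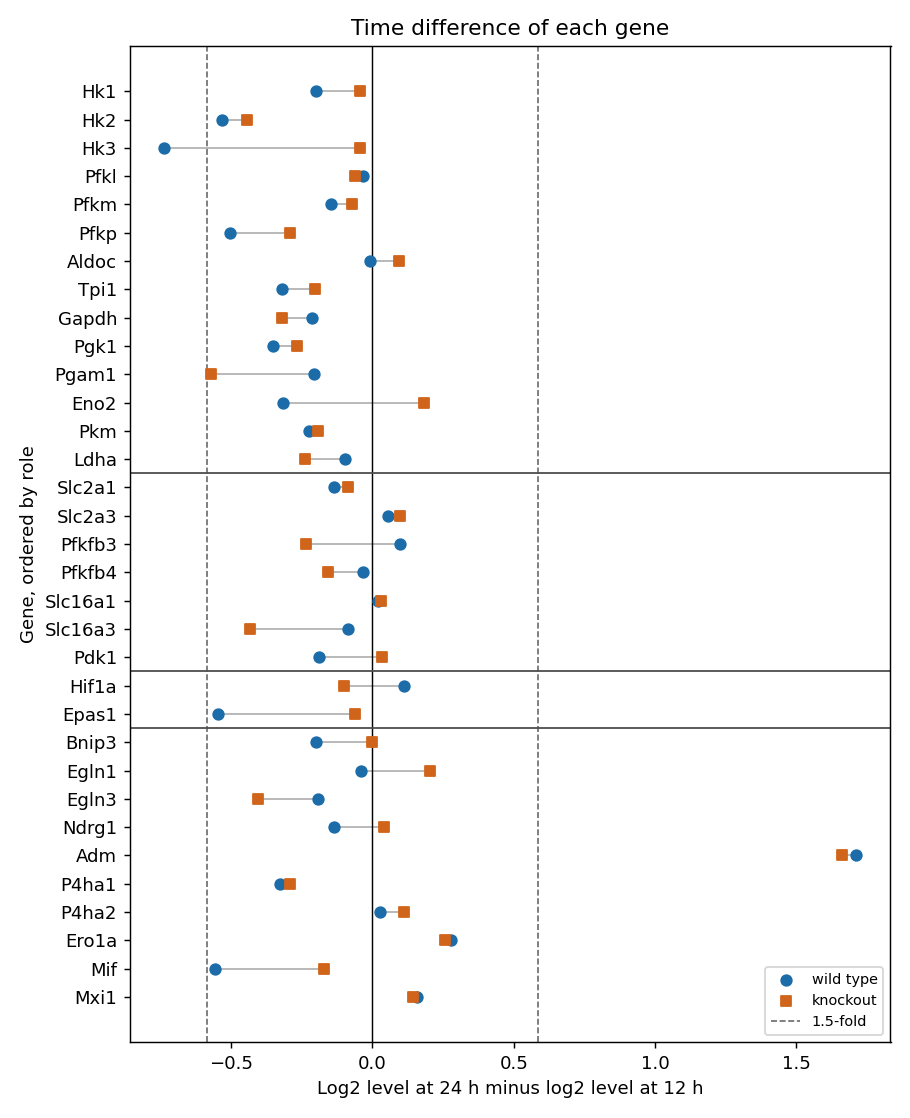
Log2 level at 24 h minus that at 12 h for each of the 33 members, with circles for wild type and squares for knockout, joined by a grey line; dashed lines mark 1.5-fold. The enzymes in the top block lie to the left of 0 except Aldoc and Eno2 in knockout, and Adm lies far to the right at 1.71 and 1.66, the latter against a 12 h value under background.

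The transport and flux control genes had smaller median time differences than the enzymes, at -0.03 in wild type and -0.09 in knockout. In each genotype 4 of 7 were below 0, against 50.8% and 49.5% of all genes kept. Lower in both were 3 of 7, against 29.8%, and by 1.1-fold or more 0 of 7, against 12.8%. These counts lay near the shares over all genes. Slc2a1, the main glucose importer of activated macrophages, lay between 8.05 and 8.20 in the 4 arrays. Slc2a3, a high-affinity glucose importer, was at 4.34 and 4.58 at 12 h and at 4.40 and 4.68 at 24 h, so that both knockout arrays were above both wild-type arrays. Slc16a1, a monocarboxylate transporter, had the same order, at 6.38 and 6.56 and then at 6.40 and 6.59.

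Slc16a3, the lactate exporter of glycolytic cells, was at 7.05 and 7.06 at 12 h, and at 24 h at 6.97 in wild type against 6.63 in knockout. Here the knockout 24 h array was the low one. Pfkfb3 and Pfkfb4, which set the level of the activator of phosphofructokinase, lay between 4.97 and 5.21 and between 5.73 and 5.96. Pdk1, a pyruvate dehydrogenase kinase, lay between 6.58 and 6.76. None of the 7 genes was past 1.5-fold in any of the 4 comparisons, against 2.9% to 8.72% of all genes kept.

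The other HIF targets were mixed over time. In wild type 6 of 10 were below 0 and in knockout 4 of 10, and 4 were lower in both genotypes, against 29.8% of all genes kept. Higher in both were 4 of 10, Adm, Ero1a, Mxi1 and P4ha2, against 29.3% of all genes kept, and 0 of the 14 enzymes. P4ha1, a collagen prolyl hydroxylase subunit, was at 9.19 and 9.11 at 12 h and at 8.86 and 8.82 at 24 h, both 24 h arrays being lower. Mif, a macrophage cytokine, was at 8.97 and 8.93 at 12 h and at 8.41 and 8.75 at 24 h, with wild type lowest. Ero1a, an endoplasmic reticulum oxidase, went the other way, from 7.80 and 7.89 to 8.08 and 8.14, with both 24 h arrays higher. A second, dimmer probe set of Ero1a did not share this, with time differences of -0.11 in wild type and 0.12 in knockout.

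The rest of this group varied little on the brightest probe sets. Mxi1, an antagonist of MYC, lay between 6.57 and 6.79 and was slightly higher at 24 h, but its second probe set was lower at 24 h by 0.02 and 0.24. That probe set also gave genotype differences of -0.32 at 12 h and -0.55 at 24 h, against 0.08 and 0.07 on the brighter one. Ndrg1, a stress-responsive gene, lay between 7.75 and 7.95, Bnip3, a mitophagy receptor, between 5.63 and 5.83, and P4ha2, the other collagen hydroxylase subunit, between 4.62 and 4.75. On their brightest probe sets these 4 genes stayed under 1.3-fold in all 4 comparisons. A second, dimmer probe set of Ndrg1 gave genotype differences of 0.20 at 12 h and 0.38 at 24 h. Its time differences were 0.17 in wild type and 0.34 in knockout, against -0.14 and 0.04 on the brighter one.

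Adm stood apart from every other member. At 12 h the log2 level stood at 2.75 in wild type against 2.15 in knockout, and at 24 h it stood at 4.46 against 3.81. Both 24 h arrays were well above both 12 h arrays, and knockout was below wild type at each time. In wild type the level at 24 h was 3.27-fold that at 12 h. In knockout the 12 h value was under background, so that the level at 24 h was at least 2.28-fold higher, measured against 2.62. In wild type 27 of 13308 genes had a time difference as high or higher.

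The genotype difference of Adm was -0.60 at 12 h and -0.65 at 24 h. At 12 h it rests on values at the edge of background, and against the background level wild type was at least 1.095-fold higher. At 24 h, where both arrays were above background, wild type was 1.57-fold higher. Lower in knockout by 1.5-fold or more at both times were 0.225% of all genes kept (0.143% were higher, with 0 members), and higher at 24 h in both genotypes by that size were 1.33%. The wild-type 24 h array of Adm was the highest by at least 1.3-fold, as it was for 3.57% of genes. By deposited values the knockout 12 h array was the lowest by that size, as it was for 1.18% of genes, but against background this is not shown for Adm. Adm has 1 probe set.

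Most markers of stromal cells and fibroblasts past the dim filter moved in the same order as Adm. Cultures of marrow can hold such cells, which are known to express Adm. Of 11 markers measured, 8 were above background in each array, and the log2 of their summed signal was 9.29 (wild type) and 8.77 (knockout) at 12 h, then 10.12 and 9.31 at 24 h. Lum, Thy1 and Fap were under background in all 4 arrays. Lower in knockout at both times and higher at 24 h in both genotypes, by 1.3-fold or more each time, were 6 of the 8 stromal markers past the dim filter, against 0.383% of all genes kept. Pdgfrb and Dcn lacked this order at any size. The time difference of Pdgfrb was -0.003 in wild type, and that of Dcn was -0.03 in knockout. Adm was the 1 member with this order at any size, against 10.8% of all genes kept. Its deposited values also pass 1.3-fold each time, but at 12 h the genotype difference is bounded only at 1.095-fold. Col1a1, a collagen chain, was at 8.07 and 7.49 at 12 h and 8.87 and 8.00 at 24 h. Of the B and T cell markers 2 of 7 passed the dim filter, Cd79b and Pax5, with levels at or near background, 2.31 to 3.10. Both had the order at any size, but not by 1.3-fold each time. So did 3 of 11 macrophage markers, Lyz2, Cd14 and Aif1, and 1 of 4 dendritic cell markers past the filter, Itgax. The part of any of these cell types in the values of Adm was not tested.

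**Figure D3:**
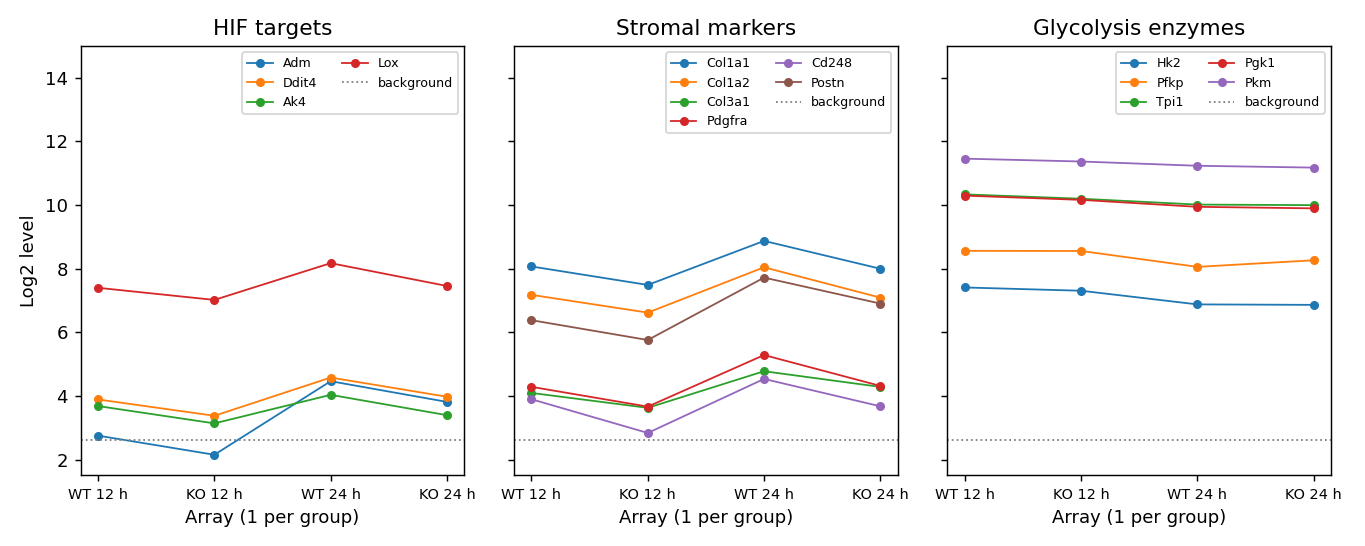
Log2 level in each of the 4 arrays, 1 per group, for Adm with 3 further hypoxia-inducible genes (left), 6 stromal markers (middle) and 5 glycolysis enzymes (right); lines join the values of 1 gene and the dotted line is the background of 2.62. The genes of the left and middle panels are lower in knockout than in wild type at each time. They are also higher at 24 h within each genotype. The 5 enzymes come from the 7 of 14 lower at 24 h by 1.1-fold or more in both genotypes. All panels show selected genes. The order of the left panel held for 1 of 10 other HIF targets and 5 of 22 further hypoxia-inducible genes. Of all genes kept, 10.8% had it.

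Between the genotypes at 12 h, 1 of 33 members, Adm, was past 1.5-fold, against 2.9% of all genes kept, or 1.4% in its direction, lower in knockout. Since the knockout value of Adm was under background, the size of this 1 call is not supported beyond 1.095-fold. The median was -0.02 for the enzymes and -0.02 for the other HIF targets. Of the enzymes 10 of 14 were below 0, against 49.4% of all genes and 44.9% of those with a mean level of 8 or more, but 7 of 14 were once each array was centred on its median. The farthest enzymes were Pgam1 at 0.37, whose level rested on the knockout 12 h array, and Eno2 at 0.35. Slc2a3 was at 0.24, Ldha at 0.23, Slc16a1 at 0.18 and Aldoc at -0.18.

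At 24 h, 3 members were past 1.5-fold, against 6.49% of all genes kept: Hk3 and Eno2 were higher in knockout, as were 2.98% of genes, and Adm was lower, as were 3.51%. Hk3 was at 0.78 or 1.72-fold, and 136 of 13308 genes were as high or higher. Its difference is made by the wild-type 24 h level of 7.03, since the knockout level of 7.81 was near those at 12 h. Eno2 was at 0.85 or 1.80-fold, with 94 genes as high or higher, and it was at 0.35 at 12 h. Of the background receptor genes, 5.69% were past 1.5-fold in this comparison.

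The remaining members differed little at 24 h. The enzymes had a median of -0.00 with 7 of 14 below 0, and the other HIF targets 0.06 with 3 of 10 below 0, against 49% of all genes kept and 49.1% of those with a mean level of 8 or more. Below 0 at both times were 7 enzymes and 3 other HIF targets, against 26% of all genes kept, and above 0 at both times were 4 and 5, against 27.5%. Without Hk3 and Eno2 the enzymes lay between -0.11 for Gapdh and 0.21 for Pfkp. Past 1.3-fold, the 1 further member was Epas1, which made 4 of 33, against 17.1% of all genes kept. Mif was at 0.34, Slc16a3 at -0.34 and Egln3 at -0.32.

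**Figure D4:**
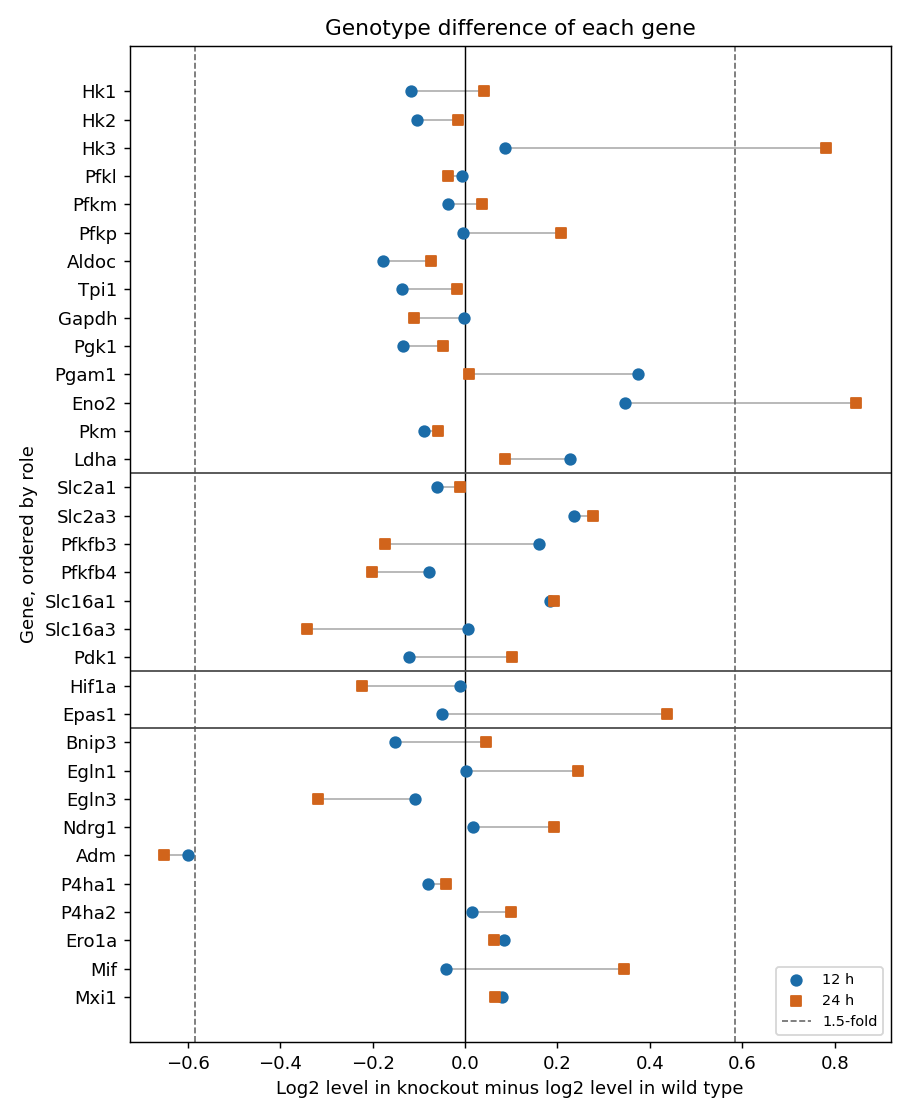
Log2 level in knockout minus that in wild type for each of the 33 members, with circles for 12 h and squares for 24 h, joined by a grey line; dashed lines mark 1.5-fold. Most members lie close to 0 at both times, Hk3 and Eno2 pass 1.5-fold at 24 h at 0.78 and 0.85, and Adm lies at -0.60 and -0.65, the former from a knockout value under background.

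The genotype difference of Hk3 was larger at 24 h than at 12 h by 0.69, that of Eno2 by 0.50, that of Epas1 by 0.49 and that of Mif by 0.39. Hk3 was the 1 member past 1.5-fold on this measure, against 10.1% of all genes kept. For Hk3 and Epas1 the wild-type 24 h array was the lowest by at least 1.3-fold, as it was for 2.63% of all genes kept. The other 3 arrays were each the lowest in that way for 0.924% to 1.47% of genes. With 1 array per group, that array and the state of wild-type cells at 24 h cannot be told apart. The time differences in wild type and the genotype differences at 24 h share it.

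A fit in limma of genotype and time together, over all 13308 genes, left 1 residual degree of freedom. It measures how far the genotype effect shifted from 12 h to 24 h, and carries no error between replicates. For time, 0 genes and 0 members had an adjusted p under 0.05 (Benjamini-Hochberg), while 6 of 33 members had an unadjusted p under 0.05, against 13.2% of all genes. These 6 were Adm, Hk2, Pfkp, Pgk1, Pgam1 and P4ha1. Adm had a time difference of 1.69 (95% interval 1.38 to 1.99, limma, adjusted p = 0.119), higher at 24 h in both genotypes. Hk2 had -0.49 (interval -0.79 to -0.18, limma, adjusted p = 0.224), lower in both.

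For genotype, the same limma fit also had 0 genes and 0 members with an adjusted p under 0.05, and 2 members, Adm and Eno2, with an unadjusted p under 0.05, against 6.52% of all genes. Adm had -0.63 (interval -0.93 to -0.32, limma, adjusted p = 0.76) and Eno2 0.60 (interval 0.15 to 1.04, limma, adjusted p = 0.76). Both had the same sign at both times, and for Adm both fitted differences take in the knockout 12 h value under background, so that their size is no firm estimate. A prior that follows signal level changed the calls for time: 2 members, Adm (limma, adjusted p = 0.00447) and Hk2 (limma, adjusted p = 0.0406), then passed, among 540 genes.

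Beyond the members, 12 regulators of HIF were listed, of which 11 were measured and 9 passed the dim filter. Past 1.5-fold were 0 of the 9 in any comparison, against 2.9% to 8.72% of all genes kept. Arnt, the beta subunit, lay between 7.92 and 8.12, and Vhl, which directs the marked alpha subunit to destruction, between 5.22 and 5.67. Hif3a, a further alpha subunit, was under background in all 4 arrays, at 2.22 to 2.27.

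Of 32 further hypoxia-inducible genes, 28 were measured and 22 passed the dim filter. Between the genotypes 0 were past 1.5-fold at 12 h, and at 24 h Bhlhe40 was higher and Ddit4, Ak4 and Lox lower in knockout, 4 of 22 against 6.49% of all genes kept. Over time 4 were past it in wild type, 3 higher and 1 lower, against 8.72%, and in knockout 3, all higher, against 6.31%. The 3 include Edn1, an endothelin precursor, whose knockout 12 h level of 2.51 was under background and bounds the fold at 1.45. The median time differences of the list were 0.04 and 0.19, above 0 where those of the enzymes were below 0. Bhlhe40, a transcriptional repressor, was at 7.24 and 7.06 at 12 h and at 6.08 and 6.69 at 24 h, lowest in wild type. Tfrc, the transferrin receptor, was at 7.07 and 6.98 and then at 7.85 and 7.65.

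Ddit4 and Lox had the order of most stromal markers past the dim filter, themselves by 1.3-fold or more in each comparison. Ddit4, an inhibitor of mTOR signalling, was at 3.89 and 3.37 at 12 h and at 4.58 and 3.97 at 24 h. Lox, which crosslinks collagen, was at 7.40 and 7.02 and then at 8.17 and 7.46. Ak4, a mitochondrial adenylate kinase named after its values were seen, was at 3.68 and 3.14 and then at 4.03 and 3.39. In all 3 genes knockout was below wild type at each time. The part of stromal cells in them was not tested.

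Hilpda itself was at 5.93 (wild type) and 5.41 (knockout) at 12 h, then at 5.47 and 5.27 at 24 h. It was lower in the arrays labelled knockout by 0.51 and 0.20, and lower at 24 h within each genotype by 0.46 and 0.15, the direction of most enzymes. Its probe set may lie outside the deleted part, so it is a limited check of the labels.

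Where glycolysis meets the mitochondrion, 12 of 13 listed genes were measured. Pdk4, a pyruvate dehydrogenase kinase induced by fatty acids, was at 5.32 and 4.49 at 12 h and at 6.29 and 6.13 at 24 h. Knockout was thus 1.77-fold lower at 12 h, and Pdk4 was past 1.5-fold over time in both genotypes, 1.97-fold in wild type and 3.11-fold in knockout. Pdp1 and Pdp2, the phosphatases that oppose the kinases, were higher in knockout at 24 h by 0.78 and 0.73. Pdp1 was at 5.75 in wild type and 6.53 in knockout there, and Pdp2 at 4.87 and 5.60. The other 9 genes, among them the dehydrogenase subunits and the carrier Mpc1, had 0 past 1.5-fold in any comparison. Of all genes kept, 2.9% to 8.72% were past it.

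Of the pentose phosphate pathway, which branches off after hexokinase, 5 of 7 listed genes were measured and 0 were past 1.5-fold. In wild type 5 of 5 were lower at 24 h and in knockout 2 of 5, against 50.8% and 49.5% of all genes kept. Taldo1, transaldolase, was at 9.42 and 9.37 and then at 8.95 and 9.08. Of 18 tissue-restricted isozymes and transporters, 15 were measured and 5 passed the dim filter, with 0 of the 5 past 1.5-fold. For both lists the share past 1.5-fold over all genes kept was 2.9% to 8.72% by comparison. The 5 were Eno3, Pklr, Ldhb, Slc16a7 and Pfkfb2.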

How the data were processed

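Transcripts were measured on 4 Affymetrix whole-transcript arrays, 1 per group. The deposited values are log2 levels, 1 per probe set and array. RMA is named in the submitters' processing notes, without a version. It equalizes the arrays, which hides any change common to all transcripts. Groups came from the sample titles.

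Of 41345 probe sets, 23521 had 1 symbol in the platform annotation. The brightest stood for its gene, and genes at or above the 40th percentile of mean level (log2 2.44) were kept. Differences are knockout minus wild type and 24 h minus 12 h, counted at 1.5-fold. The fit used limma 3.58.1 in R 4.3.3. It was also run on simulated data with equal noise for all genes and the same time shift in both genotypes. That run does not vouch for the intervals and p-values given here. All 33 members were named, and of each pathway list up to 4 genes past 1.5-fold. Other pathway genes named (Arnt, Vhl, Hif3a, Ak4, Edn1, Mpc1, Taldo1 and the isozymes) were chosen after their values were seen. The members, gene lists and rules were chosen with earlier results of these data known. Alternatives were other fold limits, dim filters, scalings and probe set rules. The number of arrays limits the precision.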

Additional observations from a re-analysis of the deposited data

How the results depend on the processing

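Medians of the enzymes and of the other HIF targets moved by less than 0.1 under every alternative run, among them no dim filter, median centring, quantile normalization, loess and the mean over probe sets. Counts of members moved with the limits. At 2-fold, 0 members were past it between the genotypes at either time, against 0.255% and 0.774% of all genes kept. Over time 1 member, Adm, was past it in wild type and in knockout, against 1.95% and 1.13%. At 1.3-fold, 6 of 33 were past it over time in wild type and 5 in knockout, against 20.4% and 16.8% of all genes kept. A filter at the 60th percentile removes Adm, which left 0 members between the genotypes at 12 h, 1 over time in wild type and 0 in knockout, against 1.03%, 7.47% and 4.62% of genes. With the mean over probe sets 2 were past 1.5-fold over time in knockout, Pgam1 and Adm, against 6.11%. With an intensity trend in limma 2 members passed for time, among 540 genes, and with the 60th percentile filter 0 members, among 146 genes. No paired analysis was possible because the labels give no replicate numbers and each group is 1 array; the limma fit already holds genotype and time together. With 1 array per group, no array could be left out.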
